A study of Saccharomyces cerevisiae with 8 samples.

Results

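Transcripts whose RNA reads came from one parental allele only were examined in a cross of the laboratory yeast strain S96 with the wild isolate SK1. A transcript was taken when its reads of one allele summed to at least 50 over 4 libraries and its reads of the other allele summed to 0. The transcripts were thus chosen by these RNA read sums, and the sums and the counted allele are given as a description, with no test. Of 7263 transcripts with a count for both alleles, 23 (0.317%) met this rule, 7 with reads of SK1 only and 16 with reads of S96 only. RNA was compared between spore pools A and B, mixtures of haploid segregants of the cross, and hybrids A and B, the diploid S96 x SK1 cross itself, with genomic DNA of the same 4 samples. All samples were grown in YPD, a rich glucose medium. Per the study's methods the pools had been selected for a single mating type, so ploidy, mating type and growth history differed together between pools and hybrids and cannot be told apart.

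Counted read pairs on annotated transcripts numbered 52202725 and 52600018 in spore pools A and B, and 45297678 and 48141742 in hybrids A and B. Genes specific to mating type a summed to 1412 and 835 CPM (counts scaled to a common library size) in spore pools A and B, against 10.4 and 14.7 in hybrids A and B (6 of 6 genes measured). Genes specific to mating type alpha summed to 35.3 and 24.1 CPM in the pools and to 26.8 and 29.1 in the hybrids (4 of 4 genes). The haploid markers that were measured (4 of 8) summed to 426 and 382 CPM in the pools, against 65.8 and 57.7 in the hybrids, so that the libraries carried the markers of their labels.

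Read pairs can be assigned to a parent only where the parental sequences differ, and pairs that match both genomes equally well are not in the counts. A transcript with a single polymorphism is therefore counted only through pairs that cover it, and a count is not the whole level of the transcript. Budding yeast chromosomes vary between strains mostly at their ends, where maltose, flocculation and metal resistance genes can be present in one strain and missing or replaced in another. Besides coding transcripts (open reading frame transcripts), the annotation holds stable unannotated transcripts (SUTs) and cryptic unstable transcripts (CUTs), non-coding RNAs of which the CUTs are removed rapidly by the nuclear exosome.

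The sequences below belong to the loci of some of these transcripts and are given as description. They were read from the S288c reference R64 of RefSeq, to which S96 is isogenic besides its mating type, and no SK1 sequence was used here, so that the presence of these loci in the SK1 genome was not examined. For the 3 transcripts printed first, no DNA SNP lay inside the annotated span. The first 300 bases of the coding sequence of REE1 (chrX:23133-23432, plus strand, start codon in capitals) belong to the transcript with the most reads. The snoRNA genes SNR5 (chrXV:842403-842606, plus strand) and SNR45 (chrXVI:821732-821903, plus strand) are shown whole.
REE1: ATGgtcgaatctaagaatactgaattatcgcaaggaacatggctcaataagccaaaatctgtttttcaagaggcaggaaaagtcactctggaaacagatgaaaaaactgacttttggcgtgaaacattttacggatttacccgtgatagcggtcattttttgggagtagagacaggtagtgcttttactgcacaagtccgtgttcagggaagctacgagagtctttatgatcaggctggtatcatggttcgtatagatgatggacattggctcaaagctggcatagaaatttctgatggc
SNR5: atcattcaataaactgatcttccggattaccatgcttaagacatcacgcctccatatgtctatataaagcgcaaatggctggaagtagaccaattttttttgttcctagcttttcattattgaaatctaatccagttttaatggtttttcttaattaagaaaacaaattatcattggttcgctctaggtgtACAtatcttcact
SNR45: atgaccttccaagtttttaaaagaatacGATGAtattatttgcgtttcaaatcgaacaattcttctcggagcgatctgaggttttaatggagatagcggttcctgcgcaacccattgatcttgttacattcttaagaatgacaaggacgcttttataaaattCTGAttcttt

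The capitals in SNR5 mark the last ACA, 10 bases before the annotated end, and an ACA lay within the last 15 bases of 19 of 31 H/ACA box snoRNA genes of R64 (61.3%). Those in SNR45 mark the first GATGA and the last CTGA, searched on the gene's strand, which are letters shared with the C and D boxes. GATGA was found in 41 of 45 C/D box snoRNA genes of R64 (91.1%) and CTGA in 45 of 45.

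Another 5 transcripts had exactly 1 DNA SNP inside their span, which was the only SNP of the DNA data in the transcript. The SNP is in capitals, with the R64 base and 20 bases either side on the plus strand, at chrXIII:502164-502204, chrVIII:381038-381078, chrVII:55937-55977, chrXV:355457-355497 and chrVII:856856-856896 in this order.
SHH3: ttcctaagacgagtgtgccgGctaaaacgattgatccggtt
CUT650: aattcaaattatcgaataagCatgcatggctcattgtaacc
CUT585: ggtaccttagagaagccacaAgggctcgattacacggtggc
SUT771: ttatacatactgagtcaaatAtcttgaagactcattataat
SUT135: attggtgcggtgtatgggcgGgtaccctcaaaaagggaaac

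By type, CUTs made up 11 of the 23 transcripts, SUTs 5, coding transcripts 4 and other annotated RNAs 3. These were 1.19% of 923 CUTs, 0.593% of 843 SUTs, 0.0774% of 5168 coding transcripts and 0.912% of 329 other transcripts with a count for both alleles. The 7 with SK1 reads only were CUT066, CUT185, CUT585, CUT650, CUT917, the snoRNA SNR45 and the coding transcript YMR118C (SHH3). The 16 with S96 reads only were CUT084, CUT094, CUT152, CUT165, CUT183, CUT468, SUT004, SUT068, SUT135, SUT771, SUT846, the snoRNA SNR5, the Ty long terminal repeat YKRCdelta11 and the coding transcripts YJL217W (REE1), MAL11 and MAL13. The 23 had a median length of 585 bp, against 1257 bp over all 7263 transcripts, of which 5168 were coding. Lengths were not compared within types. Their median sum was 88 reads, against 7251 over all transcripts with both alleles summed. The rule used these sums, so this difference is description only.

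The sums separated into 6 transcripts with 631 to 10217 reads and 17 with 57 to 206 reads. All 6 of the first were S96 only and had reads in each of the 12 combinations of library and sequencing lane. No SK1-only transcript exceeded 108 reads and none had reads in all 4 libraries, whereas 11 of the 16 S96-only transcripts had. The authors took transcript positions in S96 and searched SK1 for their best BLAST hits. A sequence present in SK1 alone therefore had no count here, so the alleles did not have the same opportunity to meet the rule. A sum of 0 for the other allele allows, with 3 counts as the limit, a share of up to 0.0294% for REE1 and of up to 5.26% for CUT185 and CUT585, which had the fewest reads. Such limits cover counting error only, since PCR copies of one molecule are counted as separate reads. The rule required the sum of 0, so the limits are description only. They also presume that reads of the other allele could be assigned, which was not tested.

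**Figure D1:**
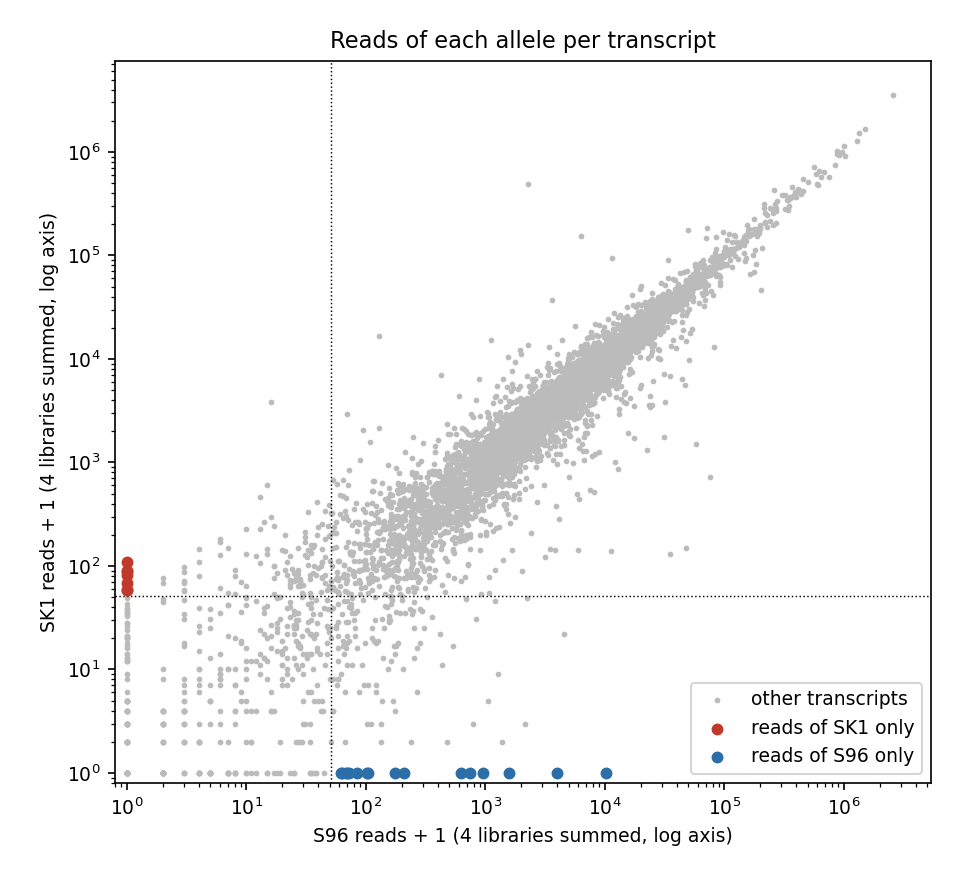
Reads of SK1 (vertical) and S96 (horizontal) per transcript, summed over 4 libraries with 1 added, on log axes; dotted lines mark the limit of 50 reads. The 7 SK1-only transcripts (red) end at 108 reads, whereas the 16 S96-only transcripts (blue) extend to 10217.

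Close to the limits, CUT185 and CUT585 were just inside with 57 reads each. Just outside were CUT811 with 48 reads, SUT590 with 44 and SNR50 with 42, each with none of the other allele. The other allele had exactly 1 read in 8 transcripts, among them SUT847 with 1 SK1 and 1384 S96 reads and CUT567 with 67 SK1 reads and 1 S96 read. Between 1 and 5 reads of the other allele were found in 36 transcripts, 15 with SK1 and 21 with S96 as the counted allele. A further 124 transcripts had 1 to 49 reads of a single allele, and 6966 had reads of both.

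The coding transcript with the most reads was YJL217W, which carries REE1, a cytoplasmic protein that takes part in the control of the enolase ENO1. It lies at chrX:22953-23889 on the plus strand, 23.0 kb from the left end. All of its reads were S96, namely 3066 and 4216 in spore pools A and B and 1283 and 1652 in hybrids A and B. Both pools stood above both hybrids. Scaled to library size with edgeR's TMM factors, it had 52.7 and 84.0 CPM in spore pools A and B, against 29.3 and 35.3 in hybrids A and B. The log2 fold change of pools over hybrids was 1.08 ± 0.31 (SE, n = 2 each), which was not called by edgeR's quasi-likelihood test (Benjamini-Hochberg adjusted p = 0.261). DESeq2 did call it (adjusted p = 0.0684), as did edgeR with the replicate letter as a block (adjusted p = 0.182). It was not called by edgeR with upper quartile factors (adjusted p = 0.250), no filter (0.233) or a DNA frequency offset (0.233). Nor was it called by edgeR with lanes 6 and 7 alone (0.642) or lane 8 alone (0.360). Leaving out a library leaves its group without a replicate, so only log2 values are given for these fits. They were 1.39 without spore pool A, 0.70 without spore pool B, 0.95 without hybrid A and 1.23 without hybrid B.

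Transcripts beside REE1 were read from both alleles. To its left, CUT670 had 522 SK1 and 530 S96 reads and YJL218W had 1698 and 1968, and the transcript of YJL216C and YJL215C to its right had 3096 SK1 and 1968 S96 reads. In genomic DNA the nearest SNP lay 39 bp outside the span, within the 50 bp by which the authors extended spans for counting. The 18 SNPs within 500 bp had an SK1 share of 45.8% in spore pool A (43.6 to 47.9%, exact binomial 95% limits), and spore pool B had no reads there. The share was 36.8% in hybrid A (33.5 to 40.2%) and 53.7% in hybrid B (50.5 to 56.9%). The limits of hybrids A and B did not overlap. A read that covers several SNPs can be counted at each of them, so these limits may be too narrow. Whether the hybrids differed beyond counting error was not tested. Both alleles were thus present in DNA on the flanks of a transcript that had RNA reads of S96 alone.

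MAL11 and MAL13 belong to the maltose locus MAL1 near the right end of chromosome VII. MAL11 encodes a maltose and alpha-glucoside transporter of the plasma membrane, and MAL13 encodes the activator that switches on maltose genes in strains with a working copy. MAL13 (chrVII:1070266-1072162, plus strand, 18.8 kb from the end) had 309 and 260 S96 reads in the pools (A and B), against 152 and 239 in hybrids A and B. MAL11 (chrVII:1073990-1076166, minus strand, 14.8 kb from the end) had 168 and 172 S96 reads in the pools, against 186 and 105 in the hybrids. Pools and hybrids overlapped for MAL11, and for MAL13 the lower pool was 260 against 239 in the higher hybrid. Neither was called (log2 fold change 0.29 ± 0.69 for MAL13 and -0.04 ± 0.86 for MAL11, SE, edgeR adjusted p = 0.970 and 0.998). The sign for MAL11 turned with the replicate block, without spore pool A, without hybrid A and with lanes 6 and 7 alone.

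Among 15 lists of genes, covering subtelomeric and copy-variable families, cross markers and mating genes, the list of maltose transporters, activators and isomaltases was the only one with a transcript read from one allele alone, with 2 of its 4 measured transcripts. The families PAU, COS, FLO, HXT, ARR and AAD had between 1 and 6 measured transcripts each and none of these met the rule, while ENA, ASP3, CUP1 and YRF1 had none measured.

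Between MAL13 and BIO2, a biotin synthase gene with 3399 SK1 and 3765 S96 reads, the annotation of the right end of chromosome VII held CUT170 (0 SK1 and 24 S96 reads) and CUT636 (12 SK1 and 0 S96 reads), both under the limit of 50. The nearest SNP to MAL13 was 4131 bp away. That nearest to MAL11 was 127 bp away, and the 3 SNPs within 500 bp had an SK1 share of 24.8% in the pools (20.3 to 29.7%) and 28.2% in the hybrids (22.3 to 34.7%), against 48.0% over all SNPs in the hybrids. In R64 the closest other sequences were MAL33 for MAL13 (71.9% identity over 97.5% of the gene) and MAL31 for MAL11 (67.7% over 50.7%), both on chromosome II. No second locus of at least 80% identity over at least 50% of the gene was found for any of the 6 genes and snoRNAs among the transcripts, and 2.93% of 5011 coding genes had one.

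YMR118C, or SHH3, encodes a putative mitochondrial inner membrane protein related to the succinate dehydrogenase subunit SDH3, and was the single coding transcript with SK1 reads only. It lies at chrXIII:502141-502773 on the minus strand, 421.7 kb from the nearest end. All 108 reads came from lane 8 of hybrid B, and spore pools A and B and hybrid A had 0. Its one SNP, printed above, had 79 SK1 and 93 S96 reads in DNA of spore pool A, 54 and 94 in hybrid A and 29 and 47 in hybrid B. YMRWdelta16 on the other strand was read from both alleles (1271 SK1 and 1974 S96 reads). A transcript read in 1 library of 4 gives no estimate of a difference between pools and hybrids, and it was not called (edgeR adjusted p = 0.477), although DESeq2 and edgeR without hybrid A or without either pool called it.

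The pair of snoRNAs guide the modification of ribosomal RNA. SNR5, an H/ACA box snoRNA for pseudouridines of the large subunit, had 55 and 48 S96 reads in the pools (A and B), against 68 and 35 in hybrids A and B, and reads in all 12 combinations of library and lane. Its groups overlapped (log2 fold change -0.27 ± 1.36, SE, edgeR adjusted p = 0.991), with the sign turned without hybrid A and with lane 8 alone. SNR45, a C/D box snoRNA that guides an acetylation of the small subunit, had 34 SK1 reads in spore pool A and 34 in hybrid A, and 0 in spore pool B and hybrid B. All 68 came from lanes 6 and 7. The nearest SNP was 491 bp from SNR5 and 6 bp from the annotated span of SNR45, which puts the SNP beside SNR45 within the 50 bp by which the authors extended spans for counting.

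YKRCdelta11, annotated at chrXI:513056-513608 on the minus strand, is a solo long terminal repeat of a Ty retrotransposon, a sequence present in many copies in the genome. It had 653 and 430 S96 reads in the pools (A and B), against 377 and 131 in hybrids A and B. Its level differed by lane, with 98 reads in lanes 6 and 7 and 555 in lane 8 of spore pool A, against 217 and 160 in hybrid A. The log2 fold change of pools over hybrids was 0.79 ± 0.62 with all lanes (SE, edgeR adjusted p = 0.847) and -1.01 with lanes 6 and 7 alone, so that its direction depended on the lanes used. Coordinates on chromosome XI were displaced from R64, by a median of 397 bp over the 20 coding transcripts within 20 kb of it, and 29.7% of coding transcripts there contained their R64 coding sequence, against at least 86.7% on every other chromosome. The 6 SNPs inside its annotated span (SK1 share 44.1% in DNA of the pools and 45.0% in the hybrids) may thus lie beside the repeat. The same holds for the reads counted over that span, so the counts may not be those of the repeat itself. Which sequence the reads came from was not tested.

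Of the non-coding transcripts, SUT004 had the most reads. It lies at chrI:198775-199895 on the plus strand, 30.3 kb from the right end, with 1661 and 887 S96 reads in spore pools A and B and 809 and 620 in hybrids A and B. Both pools stood above both hybrids in raw reads, but not after normalization, with 28.5 and 17.7 CPM in the pools and 18.5 and 13.3 in the hybrids (log2 fold change 0.54 ± 0.39, SE, edgeR adjusted p = 0.819). The 8 SNPs within 500 bp of it, the nearest at 261 bp, had an SK1 share of 24.5% in DNA of spore pool A (21.5 to 27.8%), with no reads in spore pool B, and 28.2% in the hybrids (25.3 to 31.3%). In hybrids A and B taken singly, these shares were 26.6% and 29.8%. SWH1, which encodes an oxysterol-binding protein and lies on the centromere side, had 9937 SK1 and 9199 S96 reads. Beyond SWH1, SUT436 had 5 SK1 and 266 S96 reads, and YAT1, which overlaps SUT436 on the other strand, had 530 and 584. CUT442, on the side of the chromosome end, had no SK1 count.

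SUT846, at chrXVI:930207-931231 on the minus strand, had 157 and 181 S96 reads in the pools (A and B), against 221 and 178 in hybrids A and B. Normalized, both pools were lower, with 2.70 and 3.61 CPM against 5.05 and 3.81 in the hybrids (log2 fold change -0.49 ± 0.78, SE, edgeR adjusted p = 0.949). It was one of a row of transcripts with few SK1 reads. From SUT429 to ARR3 at the right end of chromosome XVI, the SK1 share was at or below 7.98% in each transcript with at least 50 reads, while YPR195C, which overlaps SUT429 on the other strand, had 247 SK1 and 578 S96 reads (29.9%). On the other strand of SUT846, SUT430 had 2 SK1 and 2129 S96 reads and YPR196W, a putative maltose activator gene annotated with YPRWtau4, had 209 SK1 and 2410 S96 reads. The multidrug transporter gene SGE1 had 4 SK1 and 1053 S96 reads, and the arsenic resistance genes ARR1, ARR2 and ARR3 had 122, 8 and 30 SK1 against 3186, 1286 and 828 S96 reads. The last SNP of the DNA data was 23.0 kb from this end and lay within the transcript of OPT2, an oligopeptide transporter gene. The SK1 share of OPT2 was 73.2%, and that of SUT428, which overlaps it on the other strand, was 55.1%.

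**Figure D2:**
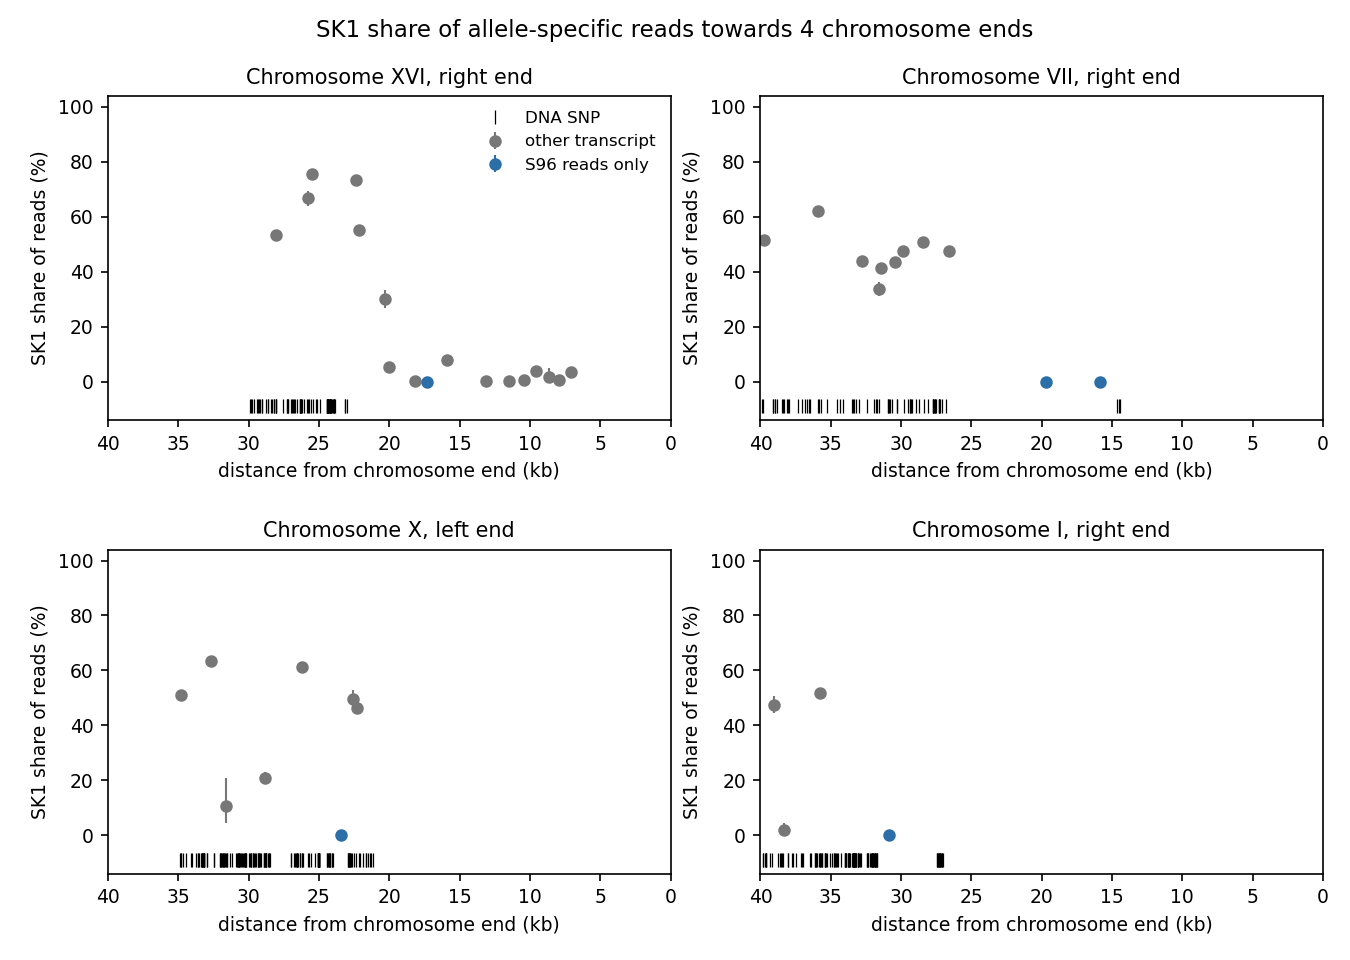
SK1 share of allele-specific RNA reads (vertical, 4 libraries summed, bars are exact 95% binomial intervals) against the distance of a transcript's middle from the chromosome end (horizontal, kb), for transcripts with a count for both alleles and at least 50 reads; ticks mark DNA SNPs. SUT846 (blue, chromosome XVI) sits among neighbours with few SK1 reads, whereas REE1 (blue, chromosome X) lies between CUT670 at 49.6% and a transcript at 61.1%.

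Within 30 kb of a chromosome end lay 5 of the 23 transcripts (21.7%), namely REE1, MAL11, MAL13, SUT846 and CUT468, compared with 4.36% of all transcripts. SUT004, at 30.3 kb, was just beyond. No DNA SNP fell inside 9 of the 23 spans (39.1%), compared with 6.71% of all spans, 18.6% of CUT spans and 3.52% of coding spans. The 9 were SNR45 and 8 of the S96-only transcripts (REE1, SUT004, MAL11, MAL13, SUT846, SNR5, CUT084 and SUT068), and each of these 8 had reads in all 4 libraries. For 4 (MAL13, SUT846, CUT084 and SUT068) no SNP was found within 500 bp either, compared with 1.46% of all transcripts. An annotated transcript overlapped on the other strand in 7 of 23 (30.4%), compared with 59.3% of all. This overlap was not compared within types or lengths, in which the 23 differ from all transcripts.

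CUT084 and SUT068 lie end to end on the plus strand of chromosome IV (1156637 to 1157357 and 1157357 to 1158989), with the nearest SNPs 2169 bp and 2466 bp away. CUT084 had 10 and 3 S96 reads in the pools (A and B), against 74 and 17 in hybrids A and B, of which 69 were from lane 8 of hybrid A. Both pools were below both hybrids, yet the difference was not called (edgeR adjusted p = 0.751). SUT068 had 5 and 27 S96 reads in the pools and 24 and 5 in the hybrids, so that the groups overlapped.

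The remaining CUTs and SUTs were read unevenly. CUT152 (chrVII:678251-678459, plus strand) had 0 reads in both spore pools and in hybrid B, against 102 S96 reads in lane 8 of hybrid A. It was not called, except by DESeq2 and by edgeR without hybrid B or without either pool. SUT771 (chrXV:355206-355822, minus strand) had 84 S96 reads in lane 8 of spore pool A and none in spore pool B or in either hybrid. CUT094 (chrIV:1334205-1334573, plus strand) had 72 S96 reads, again all in spore pool A, but these were spread over its lanes as 15, 22 and 35. SUT771, CUT094 and CUT917, the last an SK1-only CUT, were called, among the alternatives run, only without spore pool B (edgeR adjusted p = 0.0637, 0.0863 and 0.0578). CUT183 (chrVIII:501324-501956, plus strand) had 59 S96 reads in each spore pool, against 50 and 7 in hybrids A and B, and all but 2 of its 175 reads were from lane 8.

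The SK1-only CUTs were likewise carried by few lanes. CUT917 (chrXVI:833479-834071, minus strand) had 52 and 36 reads in lanes 6 and 7 of spore pool A and none elsewhere. CUT650 (chrVIII:380974-381350, minus strand) had 0 and 4 reads in the pools (A and B), against 0 and 84 in hybrids A and B, the 84 from lane 8. CUT066 (chrIV:563195-563459, plus strand) had 8 and 3 reads in the pools (A and B), against 69 and 0 in hybrids A and B. CUT185 (chrIX:32601-32721, plus strand) had 24 reads in spore pool A and 33 in hybrid B, all in lanes 6 and 7, with 0 in the other two libraries. CUT585 (chrVII:55814-56190, minus strand) had 9 reads in spore pool B, against 48 in lane 8 of hybrid A. None of these 5 CUTs had reads in all 4 libraries. Transcripts on the other strand of CUT650, CUT917 and CUT185 (YHR140W, YPR153W and YIL166C) had SK1 shares of 52.3%, 51.7% and 69.9%.

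The 3 S96-only transcripts not yet described had 62 to 69 reads each. CUT468 (chrIV:21869-22453, minus strand) had 37 and 11 reads in the pools (A and B) and 20 and 1 in hybrids A and B. SUT135 (chrVII:856683-857035, plus strand) had 7 and 54 reads in the pools and 6 and 0 in the hybrids, all in lane 8. CUT165 (chrVII:995034-995610, plus strand) had 0 and 55 reads in the pools, against 7 and 0 in the hybrids.

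**Figure D3:**
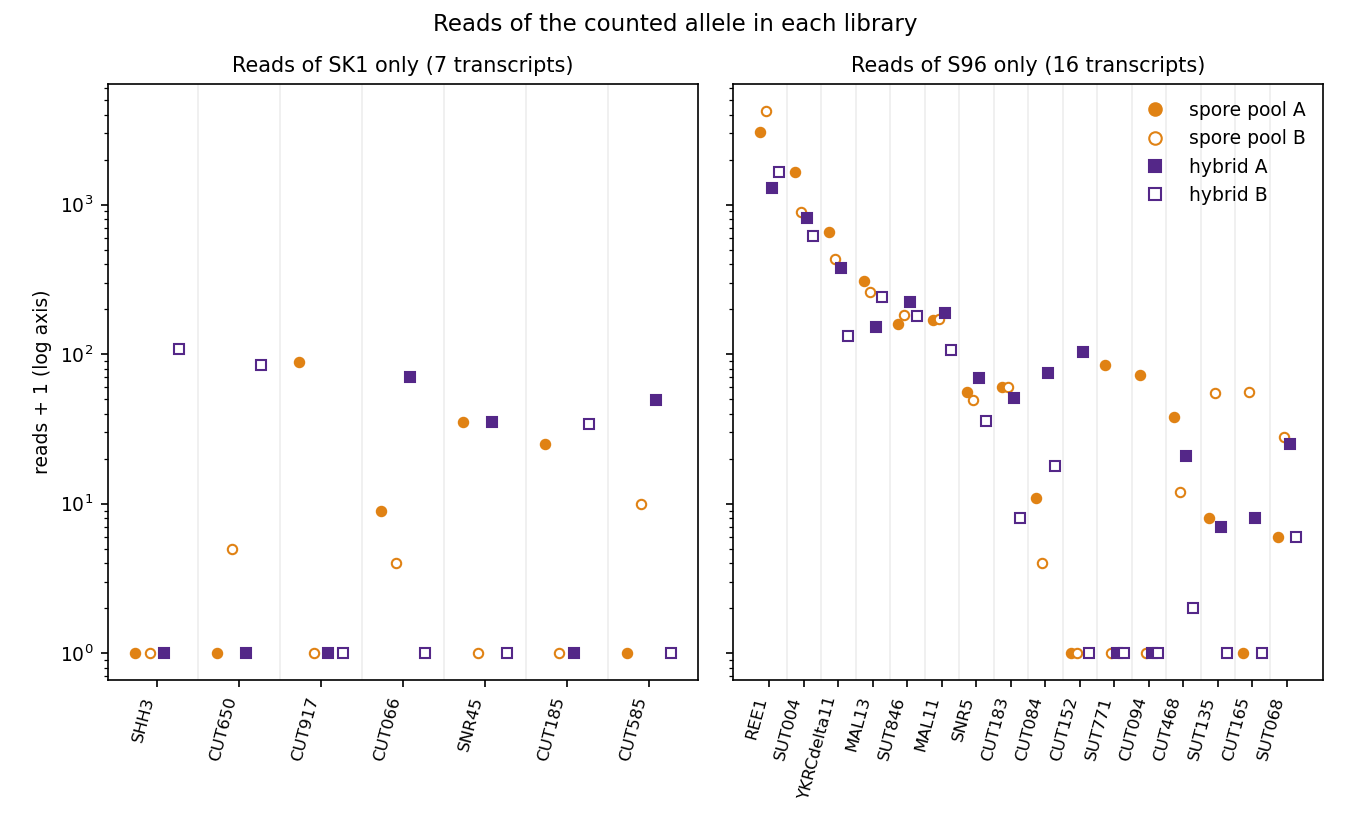
Reads of the counted allele in each library, with 1 added, on a log axis, for the 7 SK1-only and 16 S96-only transcripts; filled symbols are replicate A, open symbols replicate B, and a symbol at 1 stands for 0 reads. REE1 is the transcript with the largest sum, with 3066 and 4216 reads in the spore pools above 1283 and 1652 in the hybrids, whereas SHH3, CUT917, CUT152, SUT771 and CUT094 were read in 1 library each.

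How such low sums spread over libraries was compared with the allele counts of the same size in the rest of the series, 850 counts of one allele of a transcript between 50 and 210 reads, the 17 included. Reads in all 4 libraries were found for 5 of the 17 (29.4%), compared with 62.9% of the 850, and reads in a single library for 5 of the 17, compared with 10 of the 850 (1.18%). More than 50% of the reads came from 1 combination of library and lane in 9 of the 17 (52.9%), compared with 28.8% of the 850. All reads were in lane 8 for 4 of the 17 and none for 3, compared with 3.06% and 2.47% of the 850. The rule used these counts, and no test was made.

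Lanes of the same library were not alike. Across transcripts (which are not independent replicates), counts of lanes 6 and 7 of one library had Spearman correlations of at least 0.998. Lane 8 had correlations of 0.937 to 0.945 with lanes 6 and 7 of its own library and of 0.963 to 0.977 with lane 8 of the other libraries. Lane 8 held 62.4 to 69.2% of the reads of a library. The part of the lanes in the sums of 0 was not tested, other than by the counts of transcripts that met the rule with lanes 6 and 7 alone (31, of which 11 are among the 23) and with lane 8 alone (31, of which 14 are).

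**Figure D4:**
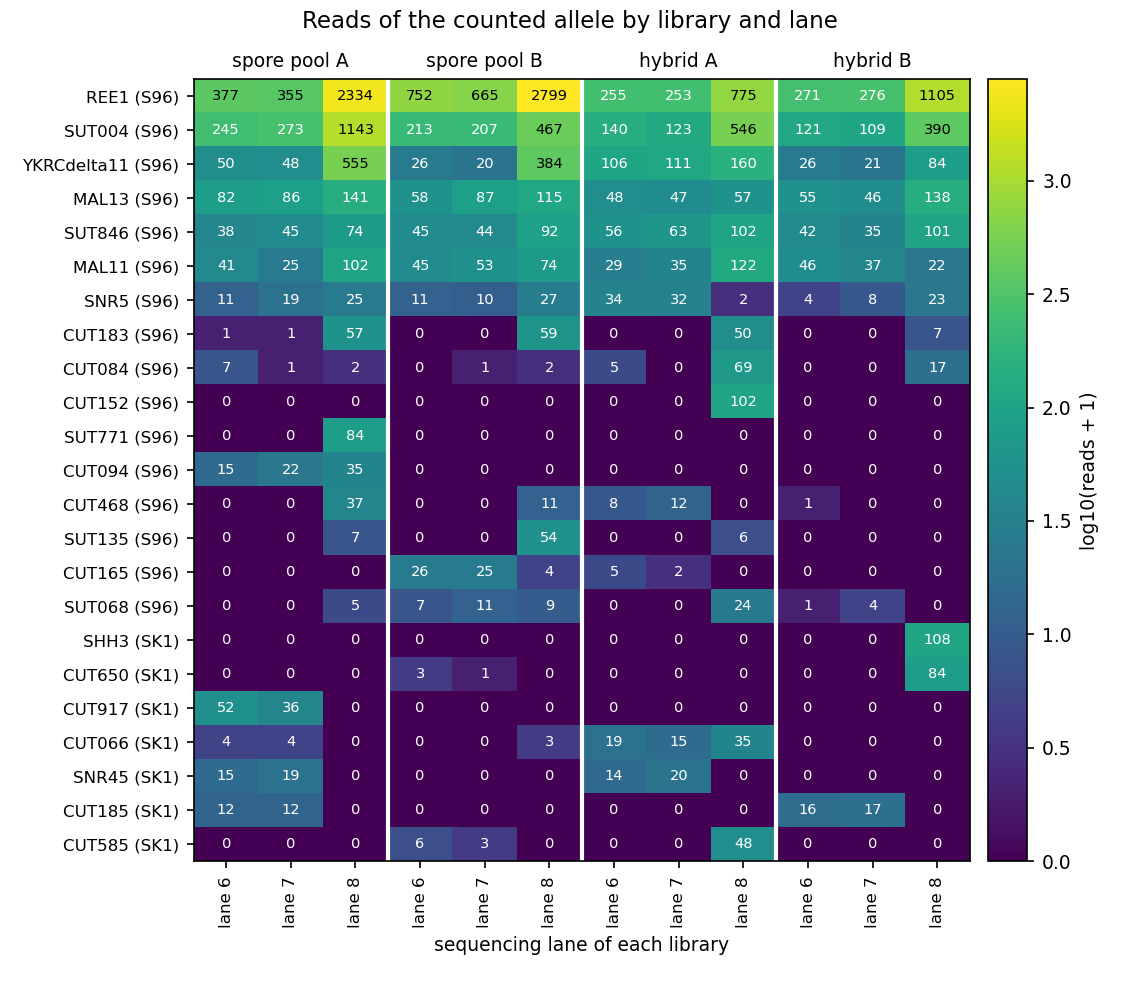
Reads of the counted allele in lanes 6, 7 and 8 (columns) of spore pools A and B and hybrids A and B for the 23 transcripts (rows, counted allele in brackets); colour is log10 of reads plus 1. The 6 transcripts with the largest sums and SNR5 fill all 12 columns, whereas CUT152, SUT771 and SHH3 fill 1.

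Genomic DNA of the hybrids held both alleles in each of the 14 transcripts with a SNP inside the span, with 123 to 1335 reads per transcript. Their SK1 share was 42.6 to 55.3% in the spore pools (median 48.4%) and 37.1 to 53.5% in the hybrids (median 45.5%), against 48.0% over all SNPs in the hybrids. SHH3 had the lowest share in the hybrids, with 45.9% in spore pool A (38.3 to 53.7%) and 37.1% in the hybrids (30.7 to 43.7%), although its RNA reads were SK1 only. DNA of spore pool B covered 10355 SNPs compared with 64272 in spore pool A and had reads in 6 of these 14 transcripts, so that for the other 8 the share of the pools is that of spore pool A. With 2 samples a group an exact permutation test cannot reach below p = 0.33, and none was made.

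**Figure D5:**
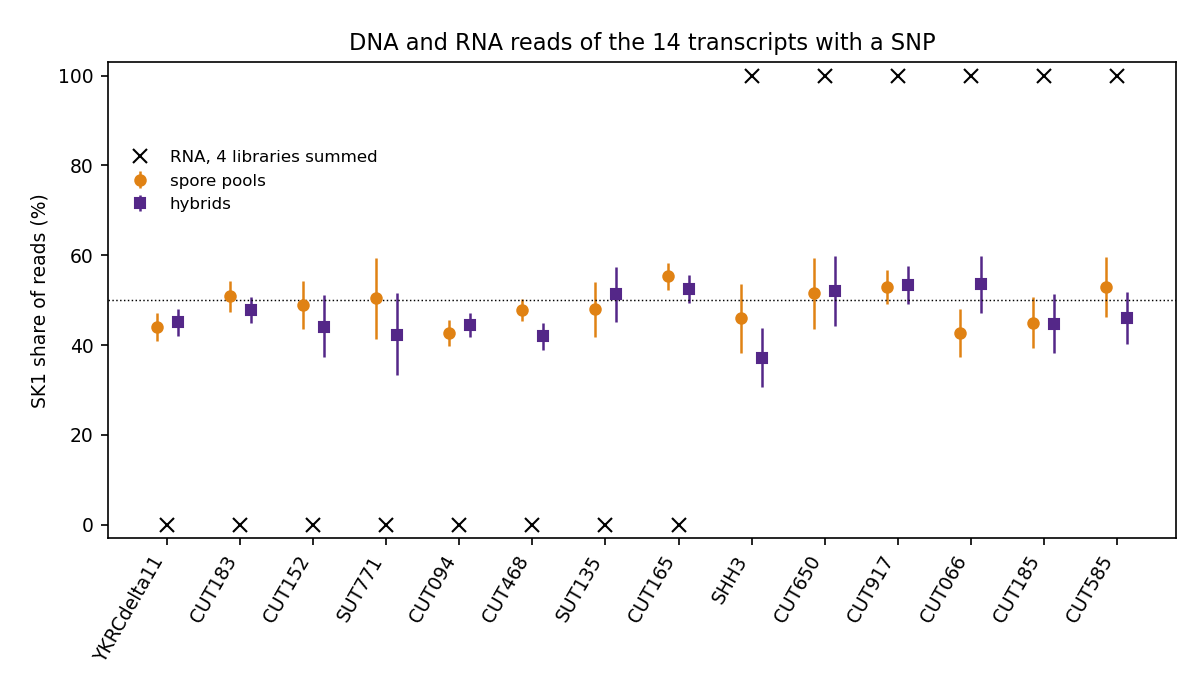
SK1 share of DNA reads summed over the SNPs inside each of 14 transcripts (vertical) in spore pools (orange) and hybrids (purple), bars being exact 95% binomial intervals for counting error; crosses give the SK1 share of RNA reads, 0 or 100 by the rule. DNA shares lie between 37.1 and 55.3%. A read that covers several SNPs can be counted at each of them, so the bars may be too narrow.

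Total levels of the spore pools were set against the hybrids with edgeR over 6848 transcripts with a mean of at least 10 reads, in which 76 (1.11%) were called, 72 higher and 4 lower in the pools. All 23 transcripts were tested and 0 were called, while 6 had an unadjusted p under 0.05 (8.13% of all) and DESeq2 called 3 (REE1, CUT152 and SHH3), compared with 262 of all (3.83%). With the replicate block 1 was called (REE1), compared with 97 of all (1.42%). Apart from REE1, those with an unadjusted p under 0.05 were CUT152, SUT771, CUT094, CUT917 and SHH3, each of which was read in 1 library only. Both pools were above both hybrids for REE1 and MAL13 and below for SUT846 and CUT084, that is 2 of 23 either way, compared with 18.4% and 18.1% of all tested transcripts. The median log2 fold change of pools over hybrids was -0.04 over the 23 and 0.01 over all. Without spore pool A or spore pool B, 3 and 6 of the 23 were called, and 776 and 856 of all transcripts (11.4% and 12.5%). Without hybrid A or hybrid B, 1 of the 23 was called in each case (SHH3 and CUT152), and 58 and 42 of all (0.847% and 0.614%).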

How the data were processed

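RNA of 2 spore pools and 2 hybrids and their genomic DNA were used. The authors mapped RNA read pairs to both parental genomes with GSNAP and counted strain-specific pairs with HTSeq (0.5.4p5, intersection-strict, spans extended by 50 bp), and deposited raw counts for each allele and lane, without normalization. SK1 transcripts were defined by the authors as reciprocal best BLAST hits of over 95% identity. DNA values are deposited read counts of each allele at SNPs lifted to R64. All count columns could be assigned to a sample.

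Lanes 6, 7 and 8 were summed and 5 summary lines left out (pairs on no annotated transcript were 26.8 to 36.4% of a library). The DNA files have no header. The last column was taken as SK1 because its share in spore pool A followed the change of SK1 over S96 in RNA along the genome (Spearman 0.295 over 5820 transcripts, 0.642 on chromosome III), and the second column as the SNP position because it put 66.5% of SNPs at the third base of a codon, against 16.8% for the next column. The build of the transcript annotation is not stated, and chromosome XI coordinates differ from R64.

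Spore pools were compared with hybrids by edgeR 4.0.16 in R 4.3.3 (TMM factors, quasi-likelihood test, Benjamini-Hochberg false discovery rate under 0.2 and fold above 1.5, after the study's limits). The fit was tested on simulated data. Replicate letters were treated as names only. Across transcripts, the difference of A and B in the pools correlated with that in the hybrids at r = 0.02. P-values measure the spread between 2 samples a group. Alternatives were DESeq2 1.42.0, upper quartile factors, no filter, a replicate block, allele rows with a DNA frequency offset (28000 bp window), each library left out, other limits of the rule, other SNP limits and, chosen after seeing the data, single lanes. Copies were searched with BLAST+ 2.17.0. Tables and figures were made with Python 3.11.15, pandas 2.3.3, scipy 1.17.1 and matplotlib 3.10.9.

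The transcripts and gene lists were chosen with earlier results of these data known. Every transcript was named, with values in all libraries for the 6 with the most reads of each allele, the coding ones and the called ones.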

Additional observations from a re-analysis of the deposited data

Results flagged for a closer look

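A further 9 annotated transcripts had no SK1 count at all in the deposited table and could not meet the rule, but had S96 reads in all 4 libraries. The transcript of HIS3 and YOR203W (histidine synthesis) had 47327 S96 reads and SUT786, which overlaps it, had 7172. LEU2 (leucine synthesis) had 27729. At the left end of chromosome XV, BDS1 (an alkyl and aryl sulfatase) had 2609, SUT761 had 1151, SUT762 had 430 and SUT347 had 176. CUT572 had 214, and CUT442, next to SUT004 on chromosome I, had 162. They are listed because these reads lie outside the comparisons above. A missing SK1 count is not a count of 0, so no SK1 share can be given for them. Groups of 2 samples are too small for a search for outlying libraries.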

How the results depend on the processing

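The number of transcripts read from one allele only, 23, was 47 with a minimum of 20 reads, 11 with 100 reads and 59 with up to 5 reads of the other allele. With 1 library left out it was between 23 and 34 (the highest without spore pool B), of which 16 to 20 were among the 23. The 76 transcripts called between pools and hybrids were 262 with DESeq2, 125 with allele rows and a DNA frequency offset, 97 with the replicate block, 43 with lane 8 alone and, with 1 library left out, between 42 (without hybrid B) and 856 (without spore pool B), with 776 without spore pool A. The library left alone in its group was then assumed to vary like those of the other group. Of the 23, 0 were called in the main test, 3 with DESeq2, 1 with the replicate block (REE1, log2 1.05) and 1 to 6 with 1 library left out. The pairing by letter was not supported by the labels or by the correlation of the differences, so the block is given as an alternative only. Fold changes under each alternative were set against the main value only for the 7 transcripts with at least 206 reads. They turned sign for YKRCdelta11 with lanes 6 and 7 (-1.01), for MAL11 with the replicate block (0.024), with lanes 6 and 7 (0.070) and without spore pool A or hybrid A (-0.42 to 0.49 over the libraries left out), and for SNR5 with lane 8 (0.75) and without hybrid A (-0.70 to 0.34). None of these was called, and the cause was not tested. Without 1 library, the values were 0.17 (without spore pool A) to 0.85 (without spore pool B) for SUT004, 0.21 (without hybrid B) to 1.82 (without hybrid A) for YKRCdelta11, 0.04 (without hybrid A) to 0.60 (without hybrid B) for MAL13 and -0.71 (without spore pool B) to -0.27 (without hybrid A) for SUT846. Both DNA alleles were found for 14 transcripts with SNPs of at least 10 reads and for 19 with spans extended by 500 bp, compared with 14. Sums under 210 reads limit what can be said of 17 of the 23 transcripts.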
